A study of Mus musculus with 28 samples.

Results

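The genes described here are the mouse genes Zfp1 to Zfp499, which encode zinc finger proteins, in the CA1 field of the hippocampus. A gene was taken when its symbol was Zfp followed by a number below 500, with or without 1 trailing letter, and when its mean over all 28 libraries was at least 1 CPM (reads scaled to a fixed library total, with TMM factors). The Zfp36 family, whose proteins bind RNA through another kind of finger, was left out. The selection kept 163 of 178 genes with such a symbol, out of 48709 gene identifiers in the count files and 17009 genes tested. The members were thus chosen by their mean level, and levels near the limit are given only as a description: Zfp433, Zfp429 and Zfp264 lay just below it at 0.807, 0.948 and 0.964 CPM, and Zfp473, Zfp54 and Zfp69 just above it at 1.11, 1.21 and 1.48 CPM.

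There were 10 libraries of wildtype mice on vehicle, 9 of CamkdeltaC transgenic mice on vehicle and 9 of CamkdeltaC transgenic mice on vorinostat, with vehicle or drug given in the drinking water. Vorinostat (SAHA) inhibits histone deacetylases. The mice were 2 months old when treatment started, it lasted 4 weeks, and tissue was taken at 3 months of age; both sexes were used and the wildtype mice were littermates. CamkdeltaC is a splice form of the delta chain of CaM kinase II, and its overexpression in the mouse heart is a known heart failure model. Which promoter drives the transgene, and how many founder lines were used, is not stated in the labels. Wildtype mice on vorinostat were not analysed here. Nothing in the labels ties every library to an animal of its own, and the p-values therefore describe the spread among these libraries only, part of which may be technical.

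As background, most proteins of the family carry a row of C2H2 fingers, each a short loop held by a zinc ion that reads a few bases of DNA. Many also carry a KRAB domain, which binds the corepressor Trim28 (KAP1) and through it the histone methyltransferase Setdb1 and heterochromatin proteins, and proteins of this class are known for silencing transposable elements and for keeping imprinted genes methylated. KRAB zinc finger genes arose by repeated duplication and lie in clusters, and their targets in adult neurons are known for only a few of them.

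A profile of the KRAB domain found one in 93 of the 163 members and none in 70; divergent KRAB domains can be missed, so the second class is called members with no KRAB found. A SCAN domain, which pairs zinc finger proteins with each other, was found in 13 members, 7 of them with KRAB and 6 without. KRAB members had a median of 12 fingers (range 3 to 22) and the others a median of 8 (range 0 to 40, the highest in Zfp142). In 4 members no C2H2 finger was found by the pattern used: Zfp185, Zfp330, Zfp365 and Zfp469, the last of which the annotation used here lists as a lincRNA with no protein. The KRAB members also had transcripts poorer in G and C, with a median GC of 43.7% against 47.2% in the other members and 49.6% in all tested genes.

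The 4 promoters below are shown as examples of members with small unadjusted p-values for vorinostat against vehicle in transgenic mice. Zfp26 and Zfp316 are KRAB members whose log2 fold changes there had opposite signs, at 0.24 and -0.25. Zfp263 and Zfp326 are members with no KRAB found. None of the 4 passed an adjusted p of 0.05 by edgeR in the main fit of all libraries, and they are not the extremes of the results. Each run gives 250 bases before to 50 bases after the start of the gene, 5′ to 3′ on the strand of the gene, from RefSeq on GRCm38.p6, with every CpG in capitals; the regions are chr9:20460111-20460410 on the minus strand, chr5:143269973-143270272 on the minus strand, chr16:3743849-3744148 on the plus strand and chr5:105876318-105876617 on the plus strand.
Zfp26: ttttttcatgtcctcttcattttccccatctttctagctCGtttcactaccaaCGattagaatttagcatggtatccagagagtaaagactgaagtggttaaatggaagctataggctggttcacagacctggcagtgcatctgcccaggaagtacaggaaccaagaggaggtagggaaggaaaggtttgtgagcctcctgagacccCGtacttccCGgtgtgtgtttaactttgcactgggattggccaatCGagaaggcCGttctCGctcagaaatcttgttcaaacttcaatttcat
Zfp316: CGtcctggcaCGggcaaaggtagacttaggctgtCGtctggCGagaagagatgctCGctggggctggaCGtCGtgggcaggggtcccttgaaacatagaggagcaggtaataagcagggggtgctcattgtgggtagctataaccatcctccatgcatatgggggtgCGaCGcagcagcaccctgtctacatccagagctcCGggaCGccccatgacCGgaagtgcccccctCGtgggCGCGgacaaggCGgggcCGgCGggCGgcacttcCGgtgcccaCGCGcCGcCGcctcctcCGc
Zfp263: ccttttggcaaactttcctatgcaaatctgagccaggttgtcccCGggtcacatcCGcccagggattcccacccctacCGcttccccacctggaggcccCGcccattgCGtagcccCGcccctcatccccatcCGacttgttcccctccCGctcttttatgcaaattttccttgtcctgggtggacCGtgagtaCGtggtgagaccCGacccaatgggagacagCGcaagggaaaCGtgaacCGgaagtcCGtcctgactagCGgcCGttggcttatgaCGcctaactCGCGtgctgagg
Zfp326: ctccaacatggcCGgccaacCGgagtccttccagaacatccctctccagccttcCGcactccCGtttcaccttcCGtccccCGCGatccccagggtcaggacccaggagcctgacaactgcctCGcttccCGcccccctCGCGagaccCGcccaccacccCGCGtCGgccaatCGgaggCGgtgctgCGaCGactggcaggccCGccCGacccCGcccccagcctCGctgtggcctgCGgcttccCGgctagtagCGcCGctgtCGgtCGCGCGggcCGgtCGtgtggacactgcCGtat

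The Zfp26 promoter holds 7 CpGs and has a GC content of 45.7%, whereas that of Zfp316 holds 25 CpGs at 65.7%. Zfp263 has 20 CpGs and Zfp326 has 34. The transcripts differ in the same direction for the KRAB pair, with 40.3% GC in Zfp26 and 58.6% in Zfp316. A promoter of this length was matched for 132 members, with a median of 12 CpGs in the 77 KRAB members and 19 in the 55 others, against 7 over all 32851 promoters of the table, which include those of noncoding genes. Exact matches were counted on both strands for 5 motifs, of which the first 3 below contain CpGs. The ETS motif CCGGAAGT was present in 13.6% of the members' promoters and 3.89% of all promoters, the NRF1 motif GCGCATGCG in 6.06% and 1.75%, and the YY1 motif AAGATGGCG in 4.55% and 1.4%. The ZNF143 motif ACTACAA was present in 9.85% and 3.24%, and the CCAAT box, CCAAT, in 43.9% and 37.4%. Such a match is a description of the letters and not evidence of binding. The Zfp316 promoter holds 2 ETS motifs and that of Zfp263 holds 1.

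Depth ranged from 20230085 to 33191857 counts per library. CA1 pyramidal markers were present at a summed 4640 to 7040 CPM, against 435 to 670 CPM for CA3 markers, 65.4 to 163 CPM for dentate granule markers and 8.61 to 108 CPM for choroid plexus markers. Camk2d, the gene of the transgene's kinase, was at 78.2 ± 35.3 CPM (SD, n = 10) in wildtype vehicle, 63.3 ± 19.8 CPM (n = 9) in transgenic vehicle and 71.4 ± 22.9 CPM (n = 9) in transgenic vorinostat libraries, and the 3 ranges overlapped, so that this gene does not check the labels. In 4 libraries, wildtype vehicle replicate 2 and transgenic vorinostat replicates 6, 7 and 9, 6.39 to 7.48% of counts lay on mitochondrially encoded genes, against 2.84 to 4.11% in the other 24. The same 4 libraries held more hemoglobin RNA, at 74.2 to 129 CPM against 16.9 to 53.4 CPM. Their mean log2 CPM over the KRAB members stood apart as well, but that over the members with no KRAB found did not. The fold changes of the named members and gene lists are therefore given with all libraries and, beside them, without these 4. In tissue of this kind, fewer cells of a type and less RNA per cell cannot be told apart.

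Together the 163 members made up 4708 ± 204 CPM (SD, n = 28). The 70 members with no KRAB found supplied 3121 CPM of this and the 93 KRAB members 1586 CPM. Levels of single genes were compared per kb of exon, and on that scale the median was 2.65 CPM per kb for KRAB members, 5.01 for the others and 4.08 for all tested genes.

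Zfp365 was the highest of the members per length, at 107 ± 5.02 CPM per kb (SD, n = 28), which put it at percentile 98.5 of the tested genes. It encodes a centrosomal protein that binds DISC1 and acts in neurite growth, and lies at chr10:67886103-67912662. It ranged from 509 to 610 CPM in wildtype vehicle (median 553), from 525 to 599 CPM in transgenic vehicle (median 545) and from 541 to 586 CPM in transgenic vorinostat libraries (median 567). The 3 groups overlapped over most of their range. Next came Zfp106, an RNA-binding protein needed by motor neurons, at 28.2 CPM per kb, and Zfp385a and Zfp207 at 21.3 and 20.8 CPM per kb. Zfp385a binds RNA and regulates transport and translation of mRNA in neurons, and Zfp207 (BuGZ) binds the spindle checkpoint protein Bub3. The SDs of Zfp385a and Zfp207, 3.39 and 2.39 CPM per kb, are larger than the gap between them.

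Zfp445 was the highest KRAB member, at 17.2 ± 1.84 CPM per kb (SD, n = 28) and percentile 83.7 of the tested genes. It is one of the few members with a known role in maintaining genomic imprints. The places after it belonged to Zfp239, Zfp428, Zfp260, Zfp91 and Zfp180, which lay between 14.3 and 15.9 CPM per kb, none with a KRAB domain found. At the low end were Zfp114 at 0.338, Zfp366 at 0.328 and Zfp473 at 0.111 CPM per kb.

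**Figure D1:**
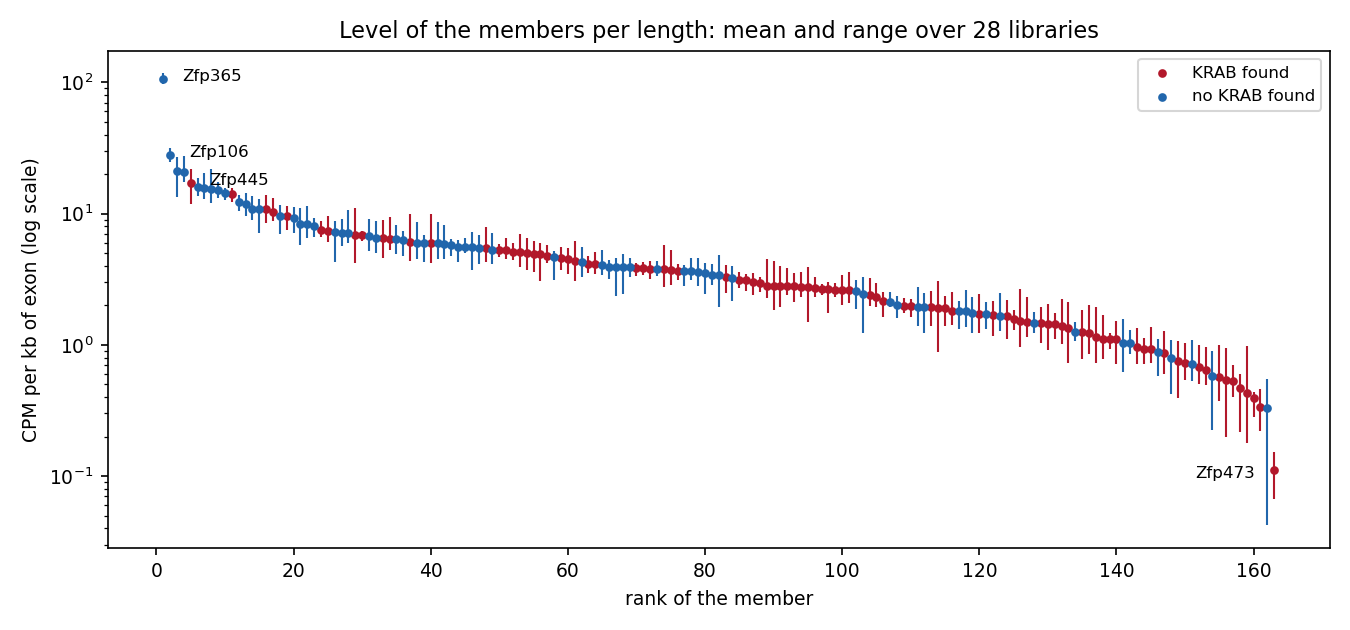
Level of each of the 163 members in CPM per kb of exon on a log axis, ordered from highest to lowest; points are means and bars the lowest and highest of 28 libraries, in red for members with a KRAB domain and blue for members with no KRAB found. Zfp365, at 107 CPM per kb, stands alone at the top, and the 5 highest members include 1 with KRAB, Zfp445.

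The median SD of the members between libraries was 0.174 on the log2 CPM scale, and that of all tested genes was 0.197. The members had to reach a mean of 1 CPM and the tested genes did not, so these 2 medians are not a like comparison. The steadiest was Zfp12, with an SD of 0.0565 and values from 35.8 to 43.1 CPM, followed by Zfp365 and Zfp180 with SDs of 0.0674 and 0.0739. The most variable were Zfp366 (SD 0.661), Zfp442 (0.471), Zfp469 (0.451), Zfp54 (0.449), Zfp263 (0.401) and Zfp189 (0.361). Of these, Zfp366, Zfp442, Zfp469 and Zfp54 had means of 1.21 to 2.09 CPM, where counting error is large. Zfp263 and Zfp189 were not low, at 15.4 and 20.6 CPM.

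Zfp189, a KRAB member studied in the prefrontal cortex for its part in resilience to stress, ranged from 13 to 26.9 CPM in wildtype vehicle (median 20.6), from 13.2 to 26.9 CPM in transgenic vehicle (median 17.6) and from 12.6 to 33.4 CPM in transgenic vorinostat libraries (median 21.6). The spread within each group was wider than the distance between the medians. Its highest library was transgenic vorinostat replicate 7, and its lowest was replicate 5 of the same group.

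The first comparison, transgenic against wildtype on vehicle, asks what the transgene changes in CA1. None of the 163 members passed an adjusted p of 0.05 by edgeR's quasi-likelihood test with Benjamini-Hochberg adjustment over all genes, where 0.0% of all tested genes passed. With all 28 libraries no member reached an unadjusted p below 0.05 either, higher or lower, whereas 0.67% of all tested genes did so with a higher level and 0.664% with a lower one. The median log2 fold change was -0.005, with 75 members positive and 88 negative, and the median over all tested genes was 0.0. Without the 4 libraries 2 KRAB members were higher and none lower at that p, where 1.24% of all tested genes were higher and 1.14% lower.

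The member with the smallest p was Zfp263, which lies at chr16:3744093-3750790 and encodes a SCAN domain protein with 9 fingers. It ranged from 9.65 to 21.9 CPM in wildtype vehicle (median 13.6) and from 8.82 to 17.1 CPM in transgenic vehicle libraries (median 11.8). The ranges overlapped, and the fold change of -0.28 ± 0.151 (SE, log2) had an edgeR p of 0.0722 and an adjusted p of 1.0; without the 4 libraries it was -0.29 ± 0.166. The next smallest p-values belonged to Zfp367, Zfp59, Zfp13, Zfp324, Zfp219, Zfp58, Zfp119b, Zfp472 and Zfp28, whose log2 fold changes lay between -0.18 for Zfp59 and 0.14 for Zfp58, and without the 4 libraries between -0.12 for Zfp119b and 0.20 for Zfp58. Among them Zfp59 shares 52.4% and Zfp58 46.6% of its 50-base words with transcripts of other genes, so that their counts are uncertain.

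The second comparison, vorinostat against vehicle in transgenic mice, asks what the drug changes. No member passed by edgeR's quasi-likelihood test with Benjamini-Hochberg adjustment, and 0.0% of all tested genes did. At an unadjusted p below 0.05, 39 members were higher and 6 lower with vorinostat. Over all tested genes the same criterion held for 7.75% as higher and 6.64% as lower. The median log2 fold change was 0.09 over the members, 0.12 over the KRAB members and 0.03 over the others, against 0.003 over all tested genes. Of the KRAB members 75 of 93 had a positive fold change, and of the others 40 of 70. The sign of these 3 medians was the same under the 4 scalings of library size that were tried.

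Without the 4 libraries of high mitochondrial share, 2 members were higher and 1 was lower at an unadjusted p below 0.05, where 1.4% of all tested genes were higher and 2.44% lower. The median log2 fold change was then 0.021 over the members, 0.025 over the KRAB members and 0.009 over the others.

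**Figure D2:**
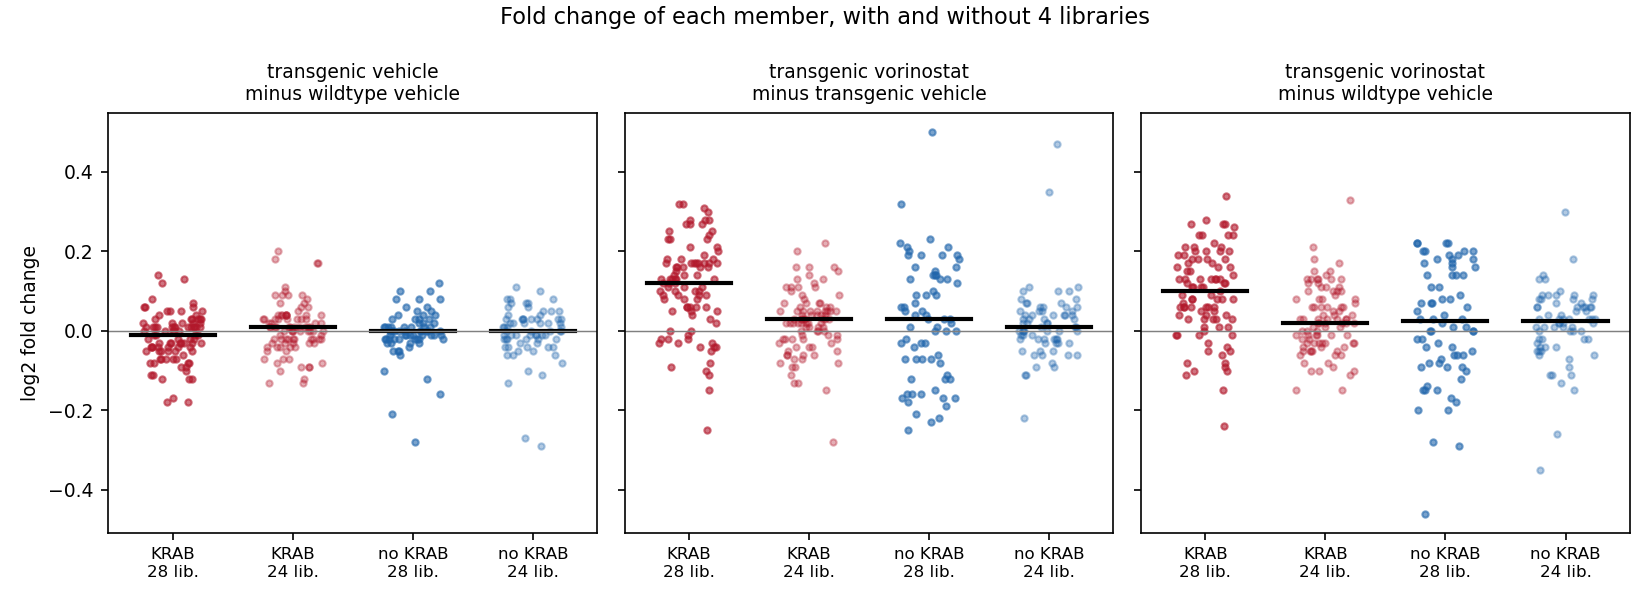
The log2 fold change of each member in the 3 comparisons, for KRAB members (red) and members with no KRAB found (blue), fitted with all 28 libraries and with 24 after leaving out the 4 of high mitochondrial share; black bars are medians and the horizontal scatter of points has no meaning. In both vorinostat comparisons the KRAB median lies above 0 with 28 libraries, and it is 0.025 with 24.

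Among the members Zfp263 had the largest fold change of this comparison. Its range was 13.4 to 22.0 CPM in transgenic vorinostat libraries (median 18.5) and 8.82 to 17.1 CPM in transgenic vehicle libraries (median 11.8). The groups overlapped between 13.4 and 17.1 CPM. The log2 fold change was 0.50 ± 0.154 (SE), with an edgeR p of 0.0028 and an adjusted p of 0.345, and it was 0.47 ± 0.182 without the 4 libraries (adjusted p 0.966). The wildtype vehicle libraries, from 9.65 to 21.9 CPM, covered nearly the whole span of both transgenic groups.

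Zfp493, a KRAB member of the chromosome 13 cluster at chr13:67779693-67792512, had the smallest p. It ranged from 2.59 to 3.77 CPM in transgenic vehicle (median 3.11) and from 3.22 to 4.93 CPM in transgenic vorinostat libraries (median 3.79). The groups overlapped, and the 3 highest vorinostat libraries were those of high mitochondrial share. The log2 fold change was 0.32 ± 0.0975 (SE; edgeR p 0.00264, adjusted p 0.345), and 0.20 ± 0.0925 without the 4 libraries.

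Zfp326, a subunit of the DBIRD complex that couples RNA polymerase elongation to splicing, was at 25.7 to 33.8 CPM in transgenic vehicle (median 29.0) and 30.3 to 40 CPM in transgenic vorinostat libraries (median 32.5). Its log2 fold change was 0.19 ± 0.065 (SE; edgeR p 0.00571, adjusted p 0.345), and 0.10 ± 0.0583 without the 4 libraries. The other positive members among the 10 smallest p-values were Zfp397, Zfp420, Zfp322a, Zfp93 and Zfp26, with log2 fold changes of 0.16 to 0.24 that became 0.06 to 0.13 without the 4 libraries.

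Of the 10, 2 were lower with vorinostat. Zfp316, a KRAB member at chr5:143249697-143270022, ranged from 34.4 to 43.3 CPM in transgenic vehicle (median 39.3) and from 23.0 to 40.4 CPM in transgenic vorinostat libraries (median 35.1). Its 3 lowest vorinostat libraries were those of high mitochondrial share, and the wildtype library of this kind, at 31.4 CPM, was the lowest of its group. The log2 fold change was -0.25 ± 0.0897 (SE; edgeR p 0.00909, adjusted p 0.345), and -0.08 ± 0.054 without the 4 libraries. Zfp362, with no KRAB found, gave -0.23 ± 0.0815 (adjusted p 0.345), and -0.08 ± 0.0439 without them.

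The third comparison set transgenic vorinostat against wildtype vehicle libraries; it shares its vorinostat libraries with the second and its wildtype libraries with the first. No member passed the edgeR test after adjustment, with 0.0% of all tested genes called. At an unadjusted p below 0.05, 34 members were higher and 7 lower, where 6.87% of all tested genes were higher and 5.71% lower. The median log2 fold change was 0.07 over the members, 0.10 over the KRAB members and 0.02 over the others. Without the 4 libraries 3 members were higher and 2 lower, where 1.94% and 2.23% of all tested genes were, and the members' median was 0.025.

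Zfp143, a transcription activator that binds the promoters of small nuclear RNA genes and many others, had one of the 2 smallest p-values. It ranged from 9.88 to 13.1 CPM in wildtype vehicle (median 11.3) and from 11 to 14.3 CPM in transgenic vorinostat libraries (median 12.5), and the groups overlapped. The highest wildtype library was the one of high mitochondrial share. The log2 fold change was 0.19 ± 0.061 (SE; edgeR p 0.0044, adjusted p 0.384), and 0.14 ± 0.0612 without the 4 libraries.

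Zfp26, a KRAB member with 22 fingers at chr9:20428449-20460162, ranged from 15.6 to 28.9 CPM in wildtype vehicle (median 21.3), from 16.8 to 24.8 CPM in transgenic vehicle (median 22.4) and from 22.8 to 31.2 CPM in transgenic vorinostat libraries (median 24.9). Every group overlapped with every other. Its log2 fold change against wildtype was 0.27 ± 0.0873 (SE; edgeR p 0.00441, adjusted p 0.384), and 0.17 ± 0.0929 without the 4 libraries. It shares 14.3% of its 50-base words with other genes. Zfp397, Zfp266, Zfp329, Zfp93, Zfp322a, Zfp68 and Zfp184 also had positive fold changes, of 0.17 to 0.27, and Zfp316 a negative one of -0.24 ± 0.0877. The first 7 lay between 0.08 and 0.21 without the 4 libraries, and Zfp316 was at -0.10 ± 0.054.

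The libraries of high mitochondrial share were transgenic vorinostat replicates 6, 7 and 9 and wildtype vehicle replicate 2. No transgenic vehicle library was among them, so their difference and that of the drug cannot be fully told apart. All 4 libraries of high mitochondrial share lay above all other 24 in 40 members, or 24.5%, where this held for 9.99% of all tested genes. All 4 lay below the others in 11 members, or 6.75%, where this held for 11.2% of all tested genes. Among KRAB members 26 of 93 were above and 2 below, and among the others 14 of 70 were above and 9 below. The median difference of the 4 from the 24 was 0.28 (log2) over KRAB members, 0.06 over the others and 0.02 over all tested genes. Under the 3 other scalings of library size it was 0.27 to 0.32 over KRAB members and 0.05 to 0.10 over the others.

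The mean log2 CPM of the KRAB members was 3.58 in wildtype vehicle replicate 2 and 3.60, 3.68 and 3.68 in transgenic vorinostat replicates 6, 7 and 9. In the other 24 libraries it ran from 3.19 to 3.53, with group means of 3.39 ± 0.0958 (SD, n = 9) in wildtype vehicle, 3.40 ± 0.0514 (n = 9) in transgenic vehicle and 3.42 ± 0.0624 (n = 6) in transgenic vorinostat libraries. The 4 libraries thus lay above all the others, and among the 24 the groups differed by less than 1 SD. For members with no KRAB found the mean log2 CPM was 4.56 to 4.60 in the 4 libraries and 4.52 to 4.64 in the 24, and the sets overlapped. Within the vorinostat group the median difference of the 3 libraries from the other 6 was 0.27 over KRAB members and 0.07 over the others. Within the wildtype group the single library differed from the other 9 by 0.21 and 0.05.

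**Figure D3:**
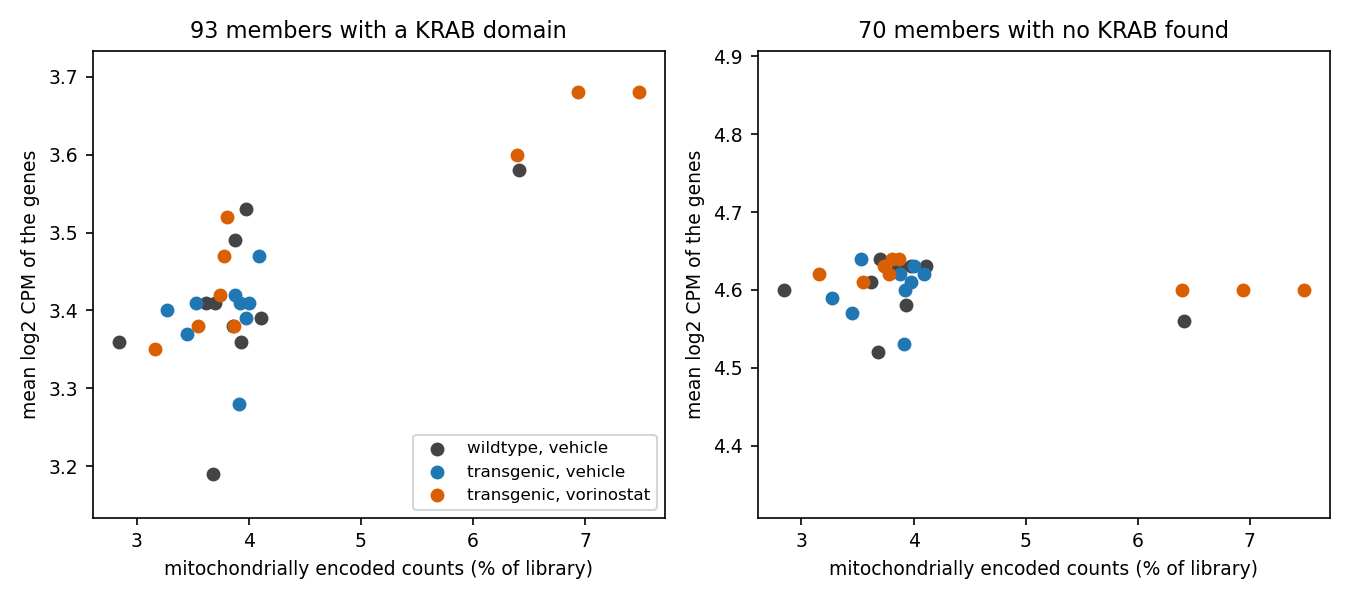
Mean log2 CPM of the 93 KRAB members (left) and of the 70 members with no KRAB found (right) in each of 28 libraries, against the share of counts on mitochondrially encoded genes; both vertical axes span the same number of log2 units and colours give the group. The 4 libraries at 6.39 to 7.48% lie above all others for KRAB members, at 3.58 to 3.68, and within the range of the others in the right panel.

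Zfp40, a KRAB member, was at 34.5 to 44.5 CPM in the 4 libraries and 19.5 to 30.5 CPM in the 24. Zfp120, also with KRAB, was at 21.9 to 25.4 CPM against 12 to 18.3 CPM, and Zfp157 at 29.9 to 33.8 CPM against 21.0 to 26.3 CPM. Zfp35, Zfp62 and Zfp260, in which no KRAB was found, were higher by 0.51, 0.49 and 0.44 (log2), again without overlap. These 6 were picked for the highest correlations with the mitochondrial share. The same share defines the 4 libraries, so the lack of overlap in these 6 follows in part from the choice.

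The 6 members picked for the lowest correlation with that share were all lower in the 4 libraries without overlap, which likewise follows in part from the choice. Zfp142, the member with most fingers, was at 26.6 to 32.1 CPM in the 4 and 42.6 to 51.7 CPM in the 24. Zfp335, needed for the proliferation of neural progenitors and mutated in a form of microcephaly, was at 20.4 to 24.1 CPM against 33.3 to 41.6 CPM. Zfp319, Zfp362, Zfp341 and Zfp316 were lower by 0.64, 0.54, 0.56 and 0.57 (log2). Of the 6 only Zfp316 has a KRAB domain found. Zfp142 and Zfp335 share 17.1% and 19.2% of their 50-base words with transcripts of other genes, and their counts are uncertain to that extent.

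**Figure D4:**
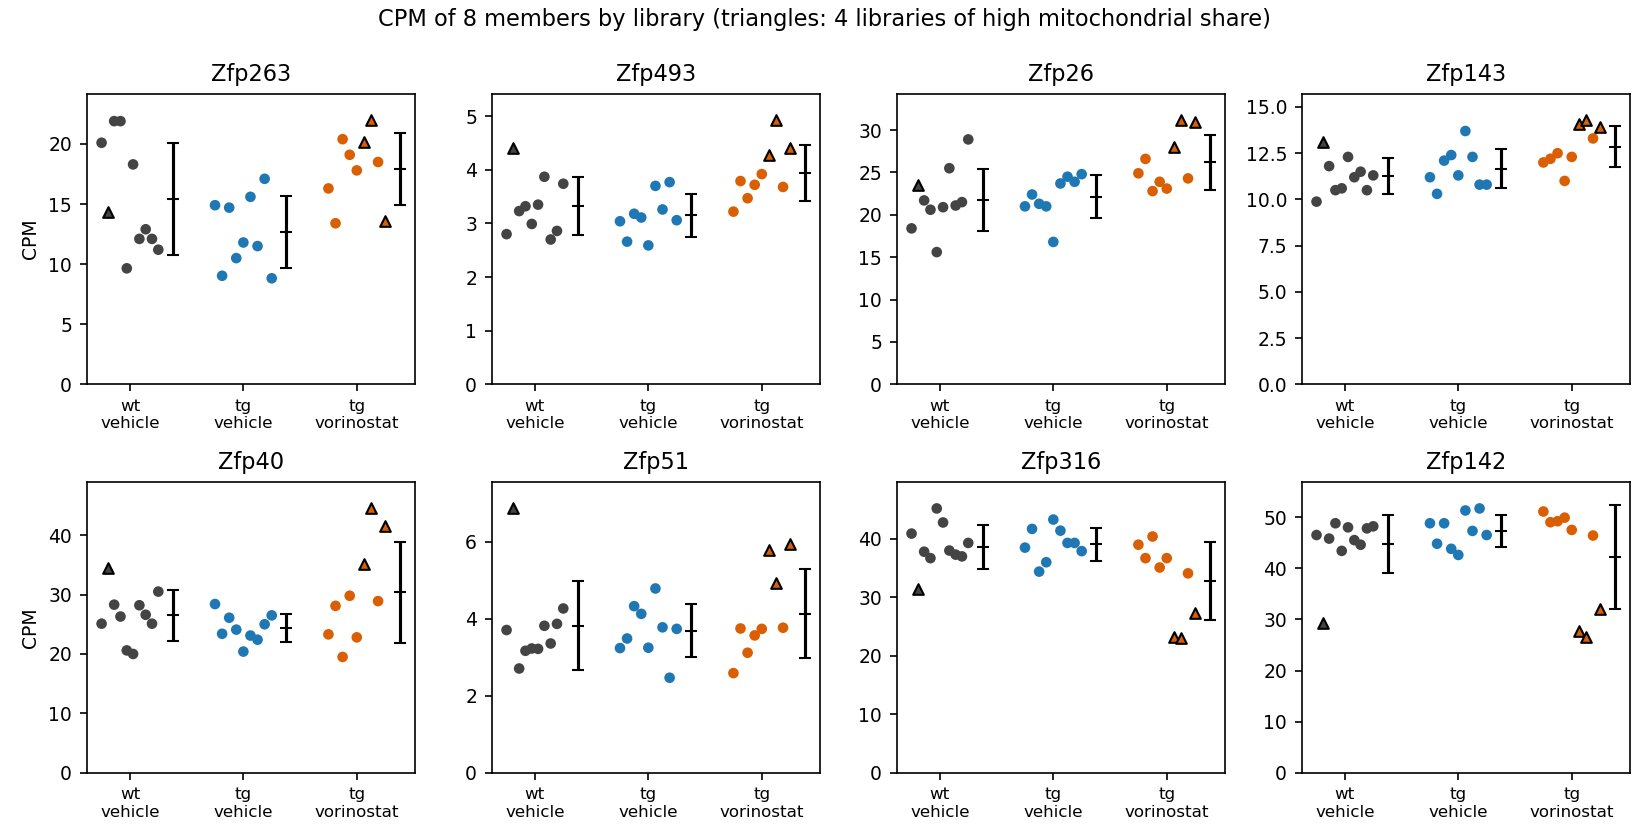
CPM of 8 members in each library, by group; circles and triangles are single libraries, triangles are the 4 libraries of high mitochondrial share, and the bar beside each group is its mean with 1 SD. Triangles lie above the circles for Zfp40 and Zfp51 and below them for Zfp316 and Zfp142, whereas for Zfp263 the ranges overlap.

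The difference of the 4 libraries moved with the base composition of the transcript. In the 65 KRAB members in the lowest range of GC (the range that holds 1 in 3 tested genes, up to 46.5%), the median difference was 0.37, and in the 30 others of that range 0.28, against 0.24 over all tested genes of the range. All 4 libraries lay above the other 24 in 35.4% of these KRAB members, 43.3% of these others and 21.8% of all tested genes of the range. In the highest range, above 52.7%, the median difference was -0.14 in 6 KRAB members, -0.42 in 18 others and -0.24 over all tested genes. Across the 163 members Spearman's rho of the difference with GC was -0.83, and it was -0.82 in each class and -0.61 across all tested genes; genes in these libraries are not independent, so this is a description. Members with KRAB and without it thus followed GC alike in sign, and KRAB members were more often of low GC. Of the marker lists of other cell types, some stood higher in the 4 libraries and others did not. The 9 microglial markers summed to 388 to 453 CPM in the 4 libraries and 309 to 409 CPM in the 24, with 8 of 9 higher in the 4, with a median log2 difference of 0.31. The 10 oligodendrocyte markers had 9 of 10 higher and a median of 0.36, but their sums in the 4 libraries, 4290 to 7480 CPM, lay within those of the 24, 3410 to 7710 CPM. The astrocyte, inhibitory neuron and endothelial lists each had 4 of 8 higher, with medians of 0.08, -0.01 and 0.11, and the CA3 and choroid plexus lists 3 of 5 each, with medians of 0.02 and 0.03. Dentate granule markers had 2 of 7 higher with a median of -0.34, and oligodendrocyte precursor markers 1 of 6 with a median of -0.18. The 8 CA1 markers summed to 4640 to 5650 CPM and 4710 to 7040 CPM, with 1 of 8 higher and a median of -0.28. None of the microglial, oligodendrocyte and CA1 lists held a gene at 0 in all libraries. The part of base composition, cell makeup, hemoglobin and mitochondrial RNA in the members' difference was not tested.

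**Figure D5:**
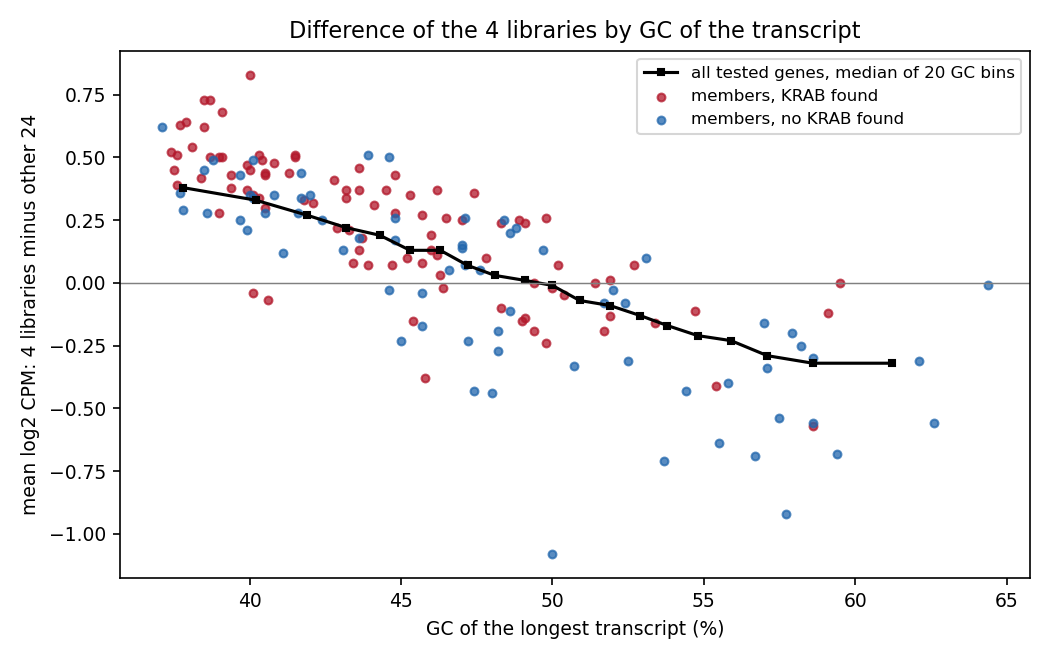
Mean log2 CPM in the 4 libraries of high mitochondrial share minus that in the other 24, against the GC of the longest transcript, for KRAB members (red) and members with no KRAB found (blue); the black line joins medians of all tested genes in 20 bins of GC. Members slope downwards with GC, from medians of 0.37 and 0.28 in the lowest range of GC to -0.14 and -0.42 in the highest.

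The later numbers of the naming system, Zfp500 to Zfp999, were measured in the same way in 178 genes with a mean of at least 1 CPM. The median difference of the 4 libraries was 0.22 in these genes and 0.20 in the 163 members. All 4 libraries lay above the other 24 in 37 of the 178 genes (20.8%) and below them in 26 (14.6%), beside 24.5% and 6.75% of the members and 9.99% and 11.2% of all tested genes. The difference between the sets of genes was not tested. Their median log2 fold change with vorinostat in transgenic mice was 0.10, and 0.02 without the 4 libraries.

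By position, 100 of the members, 78 of them with KRAB, fell into 26 neighbourhoods of members no more than 1 Mb apart, and 63 stood alone. Chromosome 7 held 35 members, chromosome 13 held 19 and chromosome 17 held 17. The largest neighbourhood, chr7:24081924-24515682, holds Zfp180, Zfp112, Zfp235, Zfp114, Zfp111, Zfp109, Zfp108, Zfp93, Zfp61, Zfp94 and Zfp428, and 9 of these 11 have KRAB. They ranged from 1.5 to 65.2 CPM, and the median log2 difference of the 4 libraries was 0.07, with 7 of the 11 higher.

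The second, chr13:67194506-67827002, holds 10 KRAB members: Zfp455, Zfp458, Zfp457, Zfp459, Zfp58, Zfp87, Zfp65, Zfp85, Zfp493 and Zfp273. All 10 were higher in the 4 libraries, by a median of 0.46, and 5 of them share over 10% of their 50-base words with other genes. The third, chr7:29768552-30169750, holds Zfp84, Zfp30, Zfp420, Zfp27, Zfp383, Zfp74, Zfp14, Zfp260, Zfp382 and Zfp146, of which 9 of 10 were higher by a median over the 10 of 0.23. In the vorinostat comparison within transgenic mice, the median log2 fold changes of these 3 neighbourhoods were 0.06, 0.19 and 0.08. They were 0.055, 0.021 and 0.028 without the 4 libraries.

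The median correlation across libraries was somewhat higher for neighbouring members than for distant ones. Pairs share members and are not independent, and the difference was not tested. Over the 24 libraries without the 4, the median Pearson correlation was 0.26 for 158 pairs of KRAB members within a neighbourhood and 0.18 for 4120 pairs apart, with interquartile ranges of 0.11 to 0.47 and -0.03 to 0.38 that overlap widely. The closest pair was Zfp120 and Zfp442 on chromosome 2, with r of 0.70 at a distance of 270433 bases. Of their 50-base words, 0.873% in Zfp120 and 32.1% in Zfp442 occur in other genes. The next pairs were Zfp239 and Zfp248, with r of 0.68, and Zfp248 and Zfp9, with r of 0.66, and in these 3 members at most 1.36% of the words occur in other genes. The share of shared words was over 10% in 21 of the KRAB members and 9 of the others.

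Among the members with better studied roles, the imprint regulators were Zfp445 and Zfp57, both with KRAB and both bound to methylated imprinting control regions in the embryo. Zfp445 ranged from 88.2 to 136 CPM in wildtype vehicle (median 124), from 99.8 to 137 CPM in transgenic vehicle (median 126) and from 121 to 163 CPM in transgenic vorinostat libraries (median 134). The groups overlapped, with a log2 fold change of 0.13 ± 0.0675 (SE) for vorinostat against vehicle in transgenic mice, and of 0.05 without the 4 libraries. Zfp57 was far lower, at 2.75 CPM per kb against 17.2 for Zfp445, and ranged from 5.67 to 14.9 CPM over all libraries. Of 32 imprinted genes tested, none passed the edgeR test after adjustment in any comparison.

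Zfp110 and Zfp369, also called NRIF1 and NRIF2 because they bind the neurotrophin receptor p75, were at 19.7 and 24 CPM, with log2 fold changes for vorinostat against vehicle of 0.09 and 0.10. These were -0.01 and 0.10 without the 4 libraries. Zfp292, a neurodevelopmental disease gene, ranged from 41.4 to 60.0 CPM in transgenic vehicle and from 52.0 to 72.3 CPM in transgenic vorinostat libraries. The groups overlapped, and the log2 fold change was 0.20 ± 0.0784 (SE), with an edgeR p of 0.0148 and an adjusted p of 0.345, and it was 0.11 without the 4 libraries. Zfp462, a large protein with 33 fingers that is also mutated in a developmental disorder, ranged from 62.5 to 118 CPM in wildtype vehicle, from 73.1 to 109 CPM in transgenic vehicle and from 62.0 to 104 CPM in transgenic vorinostat libraries, so that the groups overlapped. Zfp423, which acts with EBF factors in the development of the cerebellum, ranged from 6.95 to 18.4 CPM.

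Zfp410 is known for controlling the level of Chd4, the motor subunit of the NuRD deacetylase complex. It was steady, at 21.6 to 28 CPM, with a log2 fold change of 0.05 for vorinostat against vehicle and of -0.02 without the 4 libraries. Chd4 was at 170 to 187 CPM in the 4 libraries of high mitochondrial share and 216 to 255 CPM in the other 24. All 4 lay below the other 24 in 11.2% of all tested genes. Zfp410 was 0.17 (log2) higher in the 4. Over the list of members with other DNA-binding roles, 37 genes were tested, 12 were higher and 2 lower with vorinostat in transgenic mice at an unadjusted p below 0.05 by edgeR, where 7.75% of all tested genes were higher and 6.64% lower, and the median log2 fold change was 0.10. Without the 4 libraries 1 of the 37 was higher and none lower, with a median of 0.03, where 1.4% of all tested genes were higher and 2.44% lower. Over 10 members acting on RNA, protein or the cytoskeleton, 1 was higher and 1 lower, with a median of 0.08, beside the same 7.75% and 6.64% of all tested genes. Without the 4 libraries none of the 10 was higher or lower, with a median of 0.01, beside the same 1.4% and 2.44%.

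The partners of the KRAB domain did not share one direction. Trim28, the corepressor itself, was at 144 ± 11.7 CPM (SD, n = 10) in wildtype vehicle, 147 ± 7.08 CPM (n = 9) in transgenic vehicle and 128 ± 21.5 CPM (n = 9) in transgenic vorinostat libraries. Its log2 fold change for vorinostat against vehicle was -0.19 ± 0.0751 (SE; edgeR p 0.015, adjusted p 0.345), and -0.05 ± 0.0398 without the 4 libraries. It lay at 94.1 to 120 CPM in the 4 libraries and 134 to 161 CPM in the 24, without overlap. Setdb1 was at 53.4 to 60.6 CPM and 54.0 to 65.1 CPM in the same sets, which overlapped. Of 18 corepressor and heterochromatin genes tested none passed the adjusted threshold, and the median log2 fold change with vorinostat in transgenic mice was -0.02, with 8 of the 18 positive. After leaving out the 4 libraries 12 of the 18 were positive, with a median of 0.03.

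The genes of that list with the smallest p-values were positive. Smarcad1, a chromatin remodeller bound by Trim28, gave 0.21 ± 0.0665 (SE, log2; edgeR p 0.00357, adjusted p 0.345), and Morc3 gave 0.17 ± 0.0576 (edgeR p 0.00551, adjusted p 0.345). They gave 0.12 ± 0.0643 and 0.06 ± 0.0441 without the 4 libraries. The HUSH complex silences young transposons. In a list of its genes and related ones, 6 of 7 tested genes had a positive fold change, with a median of 0.16. Mphosph8 of this list was at 63.1 to 68.6 CPM in the 4 libraries and 41.0 to 58.0 CPM in the others. Morc2a was lower in the 4, at 49.9 to 54.8 CPM against 55.5 to 65.3 CPM, and the other genes of the list overlapped. Of all tested genes, 9.99% lay above in all 4 libraries and 11.2% below. In the NuRD complex 4 of 15 tested genes were positive, with a median of -0.07. In the 24 libraries 7 of 7 genes of the HUSH list were positive with a median of 0.065, and 5 of 15 NuRD genes with a median of -0.04.

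A few genes outside the family were picked for following the members' mean across libraries most closely. The 5 with the highest correlation over all libraries were Ipo7, Trim23, March7, Dzip3 and Phf6, and over the 24 libraries without the 4 their Pearson correlation with the members' mean log2 CPM was 0.93 to 0.96. The 24 libraries were part of those used for the choice, so the high values follow in part from it. Ipo7, Trim23 and March7 were higher in the 4 libraries without overlap, Ipo7 at 172 to 196 CPM against 111 to 167 CPM. Dzip3 and Phf6 overlapped between the sets. Of all tested genes, 9.99% were higher without overlap.

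All 163 members were present in the authors' deposited table of coexpression modules. There the module named purple held 58 of the members (35.6%) and 38 of the 93 KRAB members (40.9%). The same module held 14.8% of all genes of the table, and the members made up 2.18% of it. A second module of the authors' deposited table, lightcyan, held 25 members (15.3%) against 8.5% of its genes, and greenyellow held 15 (9.2%) against 4.78%. The module yellow held 1 member against 6.2%, and lightgreen held 0 against 2.78%. In the authors' deposited table of adjusted expression the members' median difference between transgenic vorinostat and transgenic vehicle libraries was 0.06 in the log units of that table, with 118 of 163 positive. The difference of the 4 libraries from the other 24 had a median of 0.12 over the KRAB members and 0.06 over the others in the authors' deposited table. The 4 did not move together there. The mean over the KRAB members was 3.60, 3.62 and 3.57 in transgenic vorinostat replicates 6, 7 and 9. In wildtype vehicle replicate 2 it was 3.42, within the 3.25 to 3.49 of the other wildtype libraries.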

How the data were processed

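Polyadenylated RNA of dissected CA1 was sequenced from TruSeq RNA v2 libraries, which do not mark strand, as 50 bp single-end reads per the labels' protocols, so a gene and its antisense partner cannot be told apart. Per the submitters' processing notes the authors aligned to mm10 with STAR 2.5.2b, counted with featureCounts (Subread 1.5.1), ran FastQC 0.11.5 and deposited raw counts per gene. Annotation release and treatment of reads with several matches: not given in the sources used here. Their deposited tables include adjusted expression, read here as log2 values, and a module table whose score is module membership with its p-value (the scores and p-values were not used).

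Counts were fitted over all 28 libraries with edgeR 4.0.16 in R 4.3.3 (TMM scaling, at least 10 counts by the tool's expression filter with a minimum total of 15, robust quasi-likelihood test, Benjamini-Hochberg adjustment over all tested genes at 0.05) and tested on simulated data. DESeq2 1.42.0 and limma 3.58.1 served as alternatives, beside other scalings, no low-count filter, a replicate block, a mitochondrial or Xist covariate, 2 groups only, and libraries left out. Levels are CPM, and log2 CPM adds a prior count of 2. Domains were found with pyhmmer 0.12.3 (E-value 0.001) on proteins translated from the GENCODE annotation on GRCm38, which matched 48349 of 48709 identifiers and also gave coordinates and transcript GC. Tables were handled in Python 3.11.15 with pandas 2.3.3. Named members are those with the 10 smallest p-values of each comparison, the 6 highest and 6 lowest correlations with mitochondrial share, the 6 largest and 3 smallest SDs, and the extremes per kb; members with studied roles come from a list. The members and lists were chosen with earlier results of these data known. No 2 libraries of a group agreed within sampling noise.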

Additional observations from a re-analysis of the deposited data

Results flagged for a closer look

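The lowest and highest log2 CPM of 45 quantities were examined in each group for a library far from the others, 135 groups in all, by the gap to the nearest library divided by the range. The gap passed the critical value (0.493 for 9 libraries, 0.466 for 10) in 13 of them. Chance alone gives about 1 in 20 for quantities chosen without regard to these values, and that rate does not hold here: Zfp142, Zfp335, Zfp362, Zfp319 and Zfp341 were among the quantities because they were low where the mitochondrial share was high, and Zfp366 and Zfp442 because their spread was large. Likewise, Zfp26, Zfp266, Zfp322a, Zfp324 and Zfp329 were among them for small p-values on these same counts. Replicate numbers are those of the sample titles. Wildtype vehicle replicate 2, one of the 4 libraries of high mitochondrial share, was the lowest of its group in Zfp366 (gap 0.769 of the range), Zfp142 (0.766), Zfp335 (0.592), Zfp362 (0.564) and Zfp319 (0.557). Zfp366, which encodes the dendritic cell factor DC-SCRIPT, was at 0.269 CPM there against a group median of 2.02 CPM. Transgenic vehicle replicate 5 was the lowest of its group in Zfp266 (0.593), Zfp324 (0.587), Zfp442 (0.577), Zfp26 (0.576), Zfp322a (0.541) and Zfp329 (0.506). Wildtype vehicle replicate 5 was the lowest of its group in Zfp266 (0.55). Transgenic vehicle replicate 1 was the highest of its group in Zfp341 (0.578).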

How the results depend on the processing

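No member passed the adjusted threshold in any comparison under any of 28 fits that left out 1 library each, where the number called stayed at 0 to 0. Over these fits the members' median log2 fold change ran from -0.018 to 0.003 for transgenic against wildtype, from 0.068 to 0.102 for vorinostat against vehicle in transgenic mice and from 0.049 to 0.091 for vorinostat against wildtype. Without the 4 libraries of high mitochondrial share the median for vorinostat against vehicle was 0.021 in place of 0.091. With the replicate block by the numbers in the sample titles 1 member was called in place of 0 for vorinostat against wildtype, Zfp26, at 0.32 (log2; edgeR adjusted p 0.0489). The title numbers did not pair the libraries: the correlation of deviations ran from -0.34 to 0.40 over 27 pairs, 7 were over 0.1, and 3 of 28 libraries correlated best with their own number. The submitters' own sample numbers differ from these, and over their 26 pairs the correlation ran from -0.21 to 0.23, 7 were over 0.1, and 1 of 28 libraries correlated best with its own number. With the replicate block by those numbers, an alternative chosen after seeing the data, 0 members were called and Zfp26 was at 0.28 (edgeR adjusted p 0.319). DESeq2 called 1 gene and the Xist covariate 3 genes for vorinostat against vehicle, none of them members. Library totals in place of TMM kept 163 members, and a limit of 0.5 or 2 CPM gave 169 or 155. Members near 1 CPM rest on few reads per library, which limits their precision. In 30 members over 10% of 50-base words occur in other genes.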

Other observations

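In each group the library with the lowest summed level of the members was replicate 5 by the numbers in the sample titles (the submitters' own numbers for these libraries are 4, 5 and 4), at 4210 CPM in wildtype vehicle, 4340 CPM in transgenic vehicle and 4570 CPM in transgenic vorinostat libraries. The mean log2 CPM of the KRAB members in these libraries was 3.19, 3.28 and 3.38. In the vorinostat group replicate 3 was lower by the KRAB mean, at 3.35.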
